A study of Rattus norvegicus with 6 samples.

Results

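The unfolded protein response and the integrated stress response are read here through 37 genes, taken as the rows of the deposited gene table whose symbol is in a list of endoplasmic reticulum (ER) chaperones, ER-associated degradation factors, stress sensors and ATF4 targets. All 37 symbols were found, each as a single row among 32623 genes listed. The cells were nucleus pulposus cells, which fill the gelatinous centre of the intervertebral disc, isolated from the lumbar spine of Sprague-Dawley rats (male, 4 weeks of age) and used at passages 3 to 5. In 3 libraries, called shBmal1, a lentivirus carried a hairpin that targets Bmal1, and in 3 others, called shNC, a negative control hairpin, in both cases for 72 hours, so every library comes from lentivirus-treated primary cultures and no untreated cells are compared. The labels do not say how many hairpins were used or whether libraries of a group came from separate animals or cultures, so p-values measure the spread between these libraries, which may be technical.

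The targeted transcript, listed as Arntl, was lower in every shBmal1 library, at 27.4, 29.7 and 31.7 CPM in shNC and 2.16, 4.24 and 2.07 CPM in shBmal1 (CPM, counts scaled to library size by the TMM method), a log2 fold change of −3.37 ± 0.26, adjusted p = 1.17e-05 (± standard error; edgeR's quasi-likelihood test with Benjamini-Hochberg adjustment, used throughout). Depth was 44043803 to 49783710 counts per shNC library but 8773762 to 11679587 per shBmal1 library, and depth cannot be told apart from group. As a share of counts, mitochondrial rRNA took 0.0476 ± 0.0137% in shNC and 0.919 ± 0.339% in shBmal1 (SD, n = 3), and collagen genes, which encode the main matrix fibres, took 12.3 ± 0.647% in shNC and 2.65 ± 0.200% in shBmal1. Of 14 nucleus pulposus and notochord markers with a row in the table, Tbxt, Noto and Shh had no count in any library. The list summed to 1344 to 1408 CPM in shNC, mostly from Acan and Pax1, and to 239 to 282 CPM in shBmal1. Its largest entries in shBmal1 were Pax1 and Foxf1, at 84.9 and 73.0 CPM on average. Of the list's 10 tested genes, Acan, Col2a1, Krt8 and Pax1 were lower, Foxf1 (log2 fold change 0.56) and Ca3 (1.34) were higher, and Sox9, Krt18, Krt19 and Cd24 did not pass the test. The 7 annulus and fibroblast markers, of which Tnmd had no count, summed to 78560 to 92130 and 9688 to 12520 CPM. Nearly all of this came from Col1a1, which is also among the collagen genes. All 6 tested were lower, from −0.29 (Thy1) to −4.79 (Col12a1). The 7 macrophage and leukocyte markers summed to 32.4 to 43.0 and 27.5 to 34.3 CPM, mostly from Cd14. Of the 2 tested, Cd14 was lower (−0.40) and Cd68, at 0.407 and 2.89 CPM on average, higher (2.81). The 4 endothelial markers summed to 0.425 to 1.02 and 6.87 to 9.91 CPM, and both tested, Tek and Vwf, were higher. In bulk RNA, fewer cells of a type and less RNA per cell cannot be told apart. The part of depth, rRNA, collagen load and these markers in the results below was not tested.

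When unfolded proteins accumulate in the ER, the luminal chaperone BiP (Hspa5) is drawn away from the sensors IRE1 (Ern1), ATF6 and PERK (Eif2ak3). IRE1 splices the Xbp1 mRNA, ATF6 is cut to release a transcription factor, and both act on chaperone and degradation genes, in part through the ER stress response element. PERK phosphorylates the translation factor eIF2, as do kinases that sense amino acid shortage, heme and viral RNA. This lowers translation in general but favours ATF4, which drives amino acid genes, Ddit3 (CHOP) and Trib3, and Ppp1r15a (GADD34) then recruits a phosphatase to eIF2 and closes the loop. Matrix-producing cells such as those of the disc carry a high secretory load, for which this machinery folds collagens and proteoglycans.

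Promoter windows from RefSeq (build GRCr8, 250 bases before to 50 after the transcript start) matched 31 of the 37 genes by symbol, and these were searched on both strands for the elements through which the pathway is known to act. The ER stress response element, CCAAT and CCACG with any 9 bases between, was in the windows of 7 members (Calr, Canx, Creld2, Derl3, Hsp90b1, Hspa5 and Xbp1), against 0.0657% of 33469 windows. The shorter variant, ATTGG and CCACG with any 1 base between, was in Herpud1 and Hyou1, against 0.0508%. The ATF4-type element TGATGNAA was in Chac1, Herpud1, Nupr1, Ppp1r15b and Trib3, against 3.98% of all windows. The E-box CACGTG, the element bound by BMAL1 with CLOCK, was in Atf4, Canx, Derl3, Nupr1 and Selenos, against 6.42%, and TGACGTGG, bound by XBP1 and ATF6, was in Hyou1, against 0.595%. In Hyou1 this last match overlaps the upstream match of the shorter variant, and no other matched elements overlap. A match describes the letters only. The windows below show members that carry these elements and moved in opposite directions, with the fixed letters of each match in capitals and the rest in lower case, read 5′ to 3′ on the gene's strand. Hspa5 (GRCr8 chr3:38452766-38453065, forward strand) and Canx (chr10:35157808-35158107, reverse strand) were higher in shBmal1, whereas Hsp90b1 (chr7:23012244-23012543, reverse strand) and Hyou1 (chr8:53602632-53602931, forward strand) were lower. In Hspa5 and Hsp90b1 the capitals mark the ER stress response element, in Canx that element and then CACGTG, and in Hyou1 the shorter variant and TGACGTGG.
Hspa5: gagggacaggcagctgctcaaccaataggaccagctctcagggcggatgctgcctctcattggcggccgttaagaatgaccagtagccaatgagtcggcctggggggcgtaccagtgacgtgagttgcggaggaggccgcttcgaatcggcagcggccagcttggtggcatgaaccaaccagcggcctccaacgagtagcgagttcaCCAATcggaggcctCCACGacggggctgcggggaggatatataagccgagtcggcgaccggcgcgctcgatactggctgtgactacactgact
Canx: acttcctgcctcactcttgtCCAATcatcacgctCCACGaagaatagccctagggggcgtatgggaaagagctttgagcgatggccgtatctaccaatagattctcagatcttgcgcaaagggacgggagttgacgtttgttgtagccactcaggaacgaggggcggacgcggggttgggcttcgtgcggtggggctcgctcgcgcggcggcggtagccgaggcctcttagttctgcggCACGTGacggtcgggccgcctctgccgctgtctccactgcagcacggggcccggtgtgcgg
Hsp90b1: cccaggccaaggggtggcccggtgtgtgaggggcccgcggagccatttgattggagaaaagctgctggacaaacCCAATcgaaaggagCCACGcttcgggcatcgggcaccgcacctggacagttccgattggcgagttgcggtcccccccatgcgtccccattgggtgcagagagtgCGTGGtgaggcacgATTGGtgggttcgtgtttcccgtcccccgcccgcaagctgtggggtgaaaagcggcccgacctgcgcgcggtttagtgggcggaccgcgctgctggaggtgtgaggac
Hyou1: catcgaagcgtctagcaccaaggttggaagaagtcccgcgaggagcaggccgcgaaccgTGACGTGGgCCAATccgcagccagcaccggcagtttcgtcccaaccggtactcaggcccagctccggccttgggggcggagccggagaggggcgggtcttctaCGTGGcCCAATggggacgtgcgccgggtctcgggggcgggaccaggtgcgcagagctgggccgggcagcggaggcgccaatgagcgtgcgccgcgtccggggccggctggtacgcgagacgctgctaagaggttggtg

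Among genes with the ATF4-type element, Chac1 (GRCr8 chr3:126795881-126796180, forward strand) was higher and Nupr1 (chr1:190645852-190646151, reverse strand) lower in shBmal1. Their windows are shown with TGATGNAA, here on the opposite strand, in capitals, and in Nupr1 also CACGTG.
Chac1: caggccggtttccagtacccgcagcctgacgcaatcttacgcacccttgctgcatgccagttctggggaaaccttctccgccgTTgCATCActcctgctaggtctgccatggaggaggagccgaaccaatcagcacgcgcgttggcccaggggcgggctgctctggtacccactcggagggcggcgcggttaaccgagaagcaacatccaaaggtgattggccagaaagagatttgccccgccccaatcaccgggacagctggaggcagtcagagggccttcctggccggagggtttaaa
Nupr1: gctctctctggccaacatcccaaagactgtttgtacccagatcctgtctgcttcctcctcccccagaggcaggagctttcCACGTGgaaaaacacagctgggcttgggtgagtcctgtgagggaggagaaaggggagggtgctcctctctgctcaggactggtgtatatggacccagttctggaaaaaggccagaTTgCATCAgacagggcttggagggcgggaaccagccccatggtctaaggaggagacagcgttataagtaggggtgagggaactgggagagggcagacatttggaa

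The matched elements of other members are given as they lie on the gene's strand, to compare their spacer bases, in lower case, and their distance from the start. Among the ER stress response elements, those of Hspa5 and Xbp1 begin nearest the start, at 43 and 65 bases before it, and that of Calr farthest, at 232 bases. Creld2 has its element 145 bases before the start, and the Herpud1 match is of the shorter variant.
Xbp1: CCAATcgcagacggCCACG
Calr: CGTGGtcgaccctgATTGG
Creld2: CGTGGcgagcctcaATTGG
Herpud1: ATTGGgCCACG
Of the 7 members with the ER stress response element, Hspa5 and Canx rose, Calr, Creld2, Hsp90b1 and Xbp1 fell, and Derl3 did not pass the test. Of the 5 with TGATGNAA, Chac1, Ppp1r15b and Trib3 rose and Herpud1 and Nupr1 fell. Of the 5 with CACGTG, Atf4 and Canx rose, Nupr1 and Selenos fell, and Derl3 did not pass. Each of these 3 elements was thus held by both higher and lower members. Herpud1 and Hyou1, which hold the shorter variant, both fell, but 2 genes are too few to tie the variant to a direction. Herpud1 also holds TGATGNAA and Hyou1 also TGACGTGG. Of all members 40.5% rose and 45.9% fell, and of all genes tested 36.0% and 35.3%.

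The comparison asks how these genes differ when Bmal1, the central activator of the circadian clock, is knocked down. All 37 members had enough counts to be tested; 15 rose (40.5%) and 17 fell (45.9%), and 5 did not pass the test, at an adjusted p under 0.05. Over all 14342 genes tested, 71.3% were called, 36.0% higher and 35.3% lower, so the members' shares are near the background. The members' median log2 fold change was −0.085, against −0.014 over all genes tested; without shBmal1 replicate 1 it was −0.13. At least 2-fold, 8 members were higher and 8 lower (25.4% and 21.9% of all genes tested), and at least 4-fold, 3 were higher and 2 lower (14.3% and 8.35%). The groups did not overlap in CPM for 34 of the 37 members, against 77.3% of all genes tested. The members were abundant, 24 of them above 100 CPM on average in shNC. The part of abundance in these counts was not tested. The members did not move one way: the feedback genes and Ddit3 rose, while 7 of 11 chaperone and folding genes and Xbp1 fell. Within groups, the members' coefficient of variation had a median of 3.25% in shNC and 7.91% in shBmal1, and the largest in both groups was that of Derl3. When FPKM were rescaled to TPM, which fixes the sum over all genes, the median of all genes moved from −0.014 to −0.35, and 10 members were called higher and 21 lower, against 28.3% and 46.6% of all genes tested. Directions given here are relative to the bulk of expressed genes, and members whose direction or call depends on the scaling are named below.

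**Figure D1:**
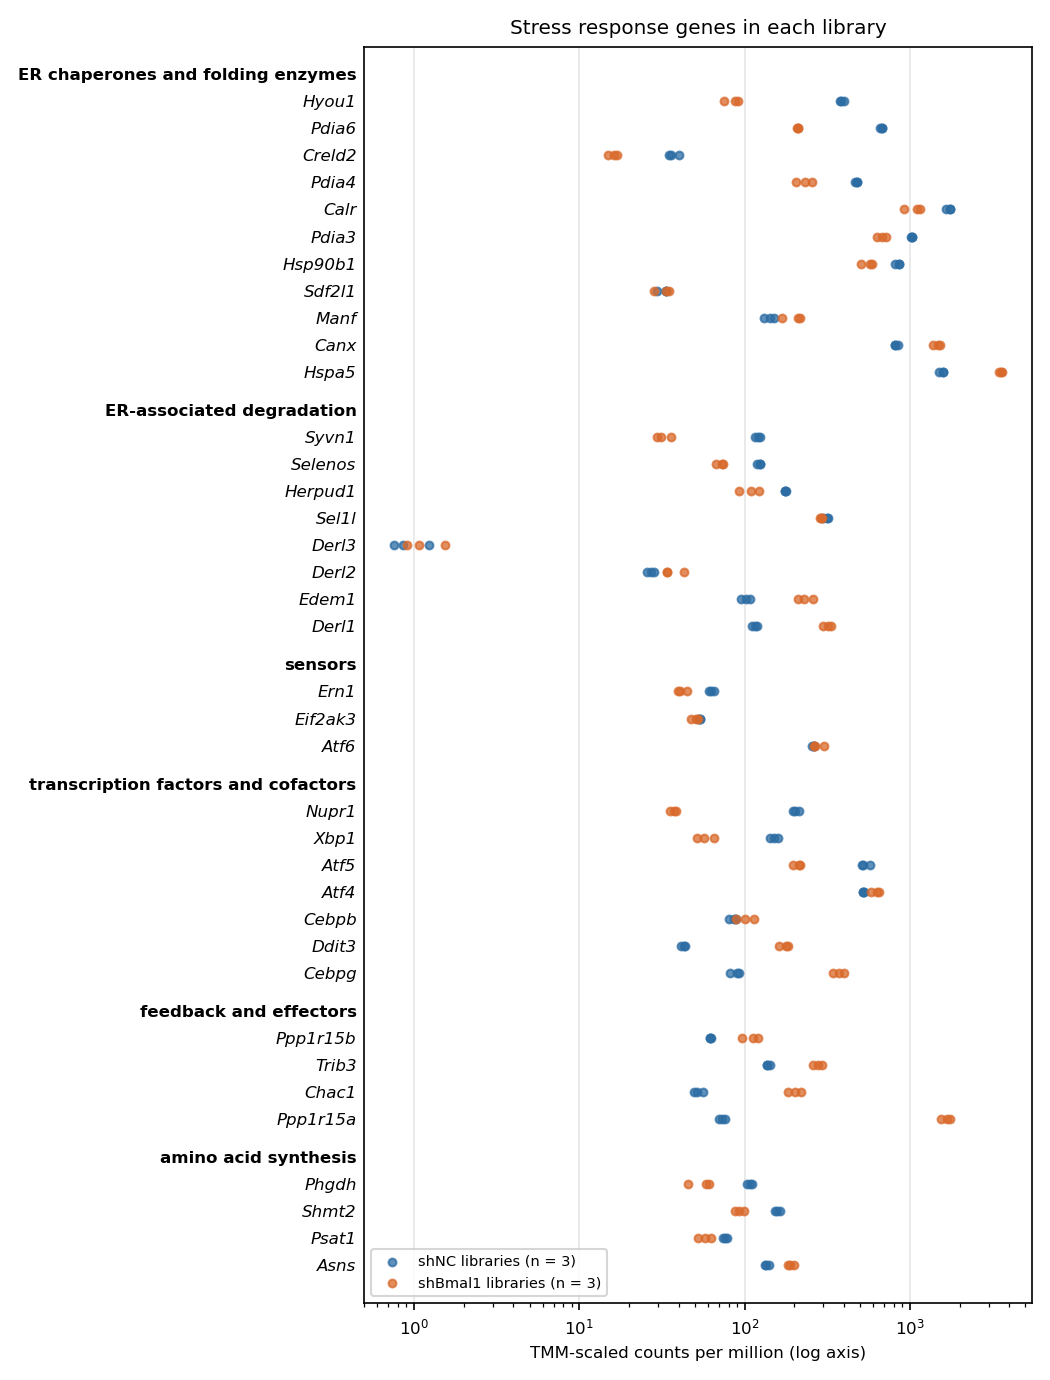
TMM-scaled CPM (log axis) of each of the 37 genes, by role, with 1 point per library (blue, shNC, n = 3; orange, shBmal1, n = 3). The groups are separate for 34 genes, against 77.3% of all genes tested. Ppp1r15a moves farthest, from 70.4 to 76.2 CPM in shNC up to 1548 to 1759 CPM in shBmal1.

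Of the 3 sensors 1 fell (33.3%), none rose and 2 did not pass the test (median −0.085). Over all genes tested 35.3% fell and 36.0% rose. Ern1, which encodes the kinase and RNase IRE1 (ENSRNOG00000012864, chromosome 10, 94588555 to 94681914, reverse strand; coordinates as the deposited table gives them, on a build not given in the sources used here), was at 62.2, 61.0 and 65.3 CPM in shNC and 45.1, 39.6 and 40.7 CPM in shBmal1, lower in each shBmal1 library than in any shNC library. It fell by 0.59 on the log2 scale (SE 0.08, adjusted p = 0.000328). Atf6, which encodes the ER-anchored transcription factor, was at 263, 263 and 256 CPM in shNC and 263, 303 and 268 CPM in shBmal1. Its groups were separate by less than 1 CPM and its log2 fold change of 0.095 ± 0.07, adjusted p = 0.252 did not pass the test. Atf6 passed the test under 6 of 16 alternative settings, in both directions: 0.25 with library totals alone (adjusted p = 0.00936, edgeR) and −0.28 with TPM (adjusted p = 0.0195, limma). Eif2ak3, which encodes the eIF2 kinase PERK, was at 51.9, 53.8 and 53.8 CPM in shNC and 52.6, 50.8 and 47.1 CPM in shBmal1, and the groups overlapped (−0.085 ± 0.08, adjusted p = 0.344).

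Of 7 transcription factors and cofactors, 4 rose (57.1%) and 3 fell (42.9%), with a median of 0.25. The shares of all genes tested were 36.0% and 35.3%. Xbp1, the substrate of IRE1 (ENSRNOG00000010298, chromosome 14, 85753760 to 85758145, forward strand), was at 151, 142 and 159 CPM in shNC and 65.7, 51.3 and 57.0 CPM in shBmal1. Every shBmal1 library lay below every shNC library, and Xbp1 fell by 1.38 on the log2 scale (SE 0.10, adjusted p = 7.35e-06). The table counts reads per gene, so the spliced and unspliced forms of Xbp1 are not separated. Atf4, the central factor of the integrated stress response (ENSRNOG00000017801, chromosome 7, 121480723 to 121482772, forward strand), was at 521, 526 and 523 CPM in shNC and 579, 632 and 653 CPM in shBmal1. This small rise (0.25 ± 0.06, adjusted p = 0.00679) turned to −0.13 with TPM (adjusted p = 0.195, limma) and missed the threshold without a count filter (0.17, adjusted p = 0.0534, edgeR). ATF4 is known to be regulated mainly in translation, which RNA counts do not measure.

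Ddit3, which encodes CHOP, the factor linked to cell death in prolonged ER stress (ENSRNOG00000006789, chromosome 7, 70580198 to 70585084, forward strand), was at 41.5, 42.8 and 43.5 CPM in shNC and 161, 183 and 179 CPM in shBmal1. The lowest shBmal1 library was far above the highest shNC library, and the log2 fold change was 2.04 ± 0.07, adjusted p = 2.1e-07. Ddit3 shares 72 bases with Mars1 on the other strand, and the use of strand in counting is unknown here. Cebpg, a partner of ATF4 on amino acid response elements, was at 82.2, 89.8 and 93.0 CPM in shNC and 402, 375 and 343 CPM in shBmal1 (2.08 ± 0.08, adjusted p = 3.33e-07). Cebpb, a C/EBP factor active in inflammation, was at 88.4, 80.9 and 85.9 CPM in shNC and 115, 100.2 and 89.3 CPM in shBmal1. Its groups were separate by less than 1 CPM and the rise (0.25 ± 0.10, adjusted p = 0.0466) lost its call when any of shNC replicates 1, 2 and 3 or shBmal1 replicates 1 and 2 was left out (adjusted p = 0.0773, 0.14, 0.0987, 0.173 and 0.12, edgeR), and turned to −0.12 with TPM.

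Beside Xbp1, Nupr1 and Atf5 fell. Nupr1, a small stress-induced chromatin cofactor (ENSRNOG00000019206, chromosome 1, 194767474 to 194769524, reverse strand), was at 213, 196 and 201 CPM in shNC and 38.3, 35.3 and 37.6 CPM in shBmal1, the largest fall of any member (−2.46 ± 0.07, adjusted p = 8.2e-08). Atf5, a factor related to ATF4 and known for the mitochondrial unfolded protein response, was at 576, 513 and 521 CPM in shNC and 197, 213 and 216 CPM in shBmal1 (−1.36 ± 0.07, adjusted p = 1.15e-06). Both genes were among the most abundant of all genes tested in shNC, at FPKM percentiles of 98.6 and 99.3, and came to 89.7 and 96.9 in shBmal1.

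All 4 feedback and effector genes rose (median 1.47), beside 36.0% of all genes tested. Ppp1r15a, which encodes the stress-induced GADD34 subunit that directs protein phosphatase 1 to eIF2 (ENSRNOG00000020938, chromosome 1, 101511901 to 101514974, reverse strand), was at 76.2, 73.3 and 70.4 CPM in shNC and 1548, 1759 and 1686 CPM in shBmal1. It rose 22.7-fold (4.50 ± 0.08, adjusted p = 2.63e-08), and of 4281 genes with a mean of at least 50 CPM in either group 68 rose by more. Its constitutive relative Ppp1r15b rose by much less, from 62.1 ± 0.584 to 109.9 ± 12.0 CPM (0.82 ± 0.09, adjusted p = 7.3e-05). Within a library, where scaling cancels, the ratio of Ppp1r15a to Ppp1r15b in FPKM (fragments scaled for gene length and depth) went from 2.62 ± 0.0795 to 33.9 ± 4.18.

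Chac1, which encodes an enzyme that degrades glutathione and is induced by ATF4 and CHOP, was at 56.2, 49.4 and 51.6 CPM in shNC and 219, 201 and 184 CPM in shBmal1 (1.94 ± 0.09, adjusted p = 6.12e-07). Trib3, a pseudokinase induced by ATF4 and CHOP that restrains them, was at 143, 136 and 137 CPM in shNC and 295, 279 and 260.2 CPM in shBmal1 (2.00-fold, SE 0.07 on the log2 scale, adjusted p = 4.32e-06). In both genes each shBmal1 library exceeded each shNC library.

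**Figure D2:**
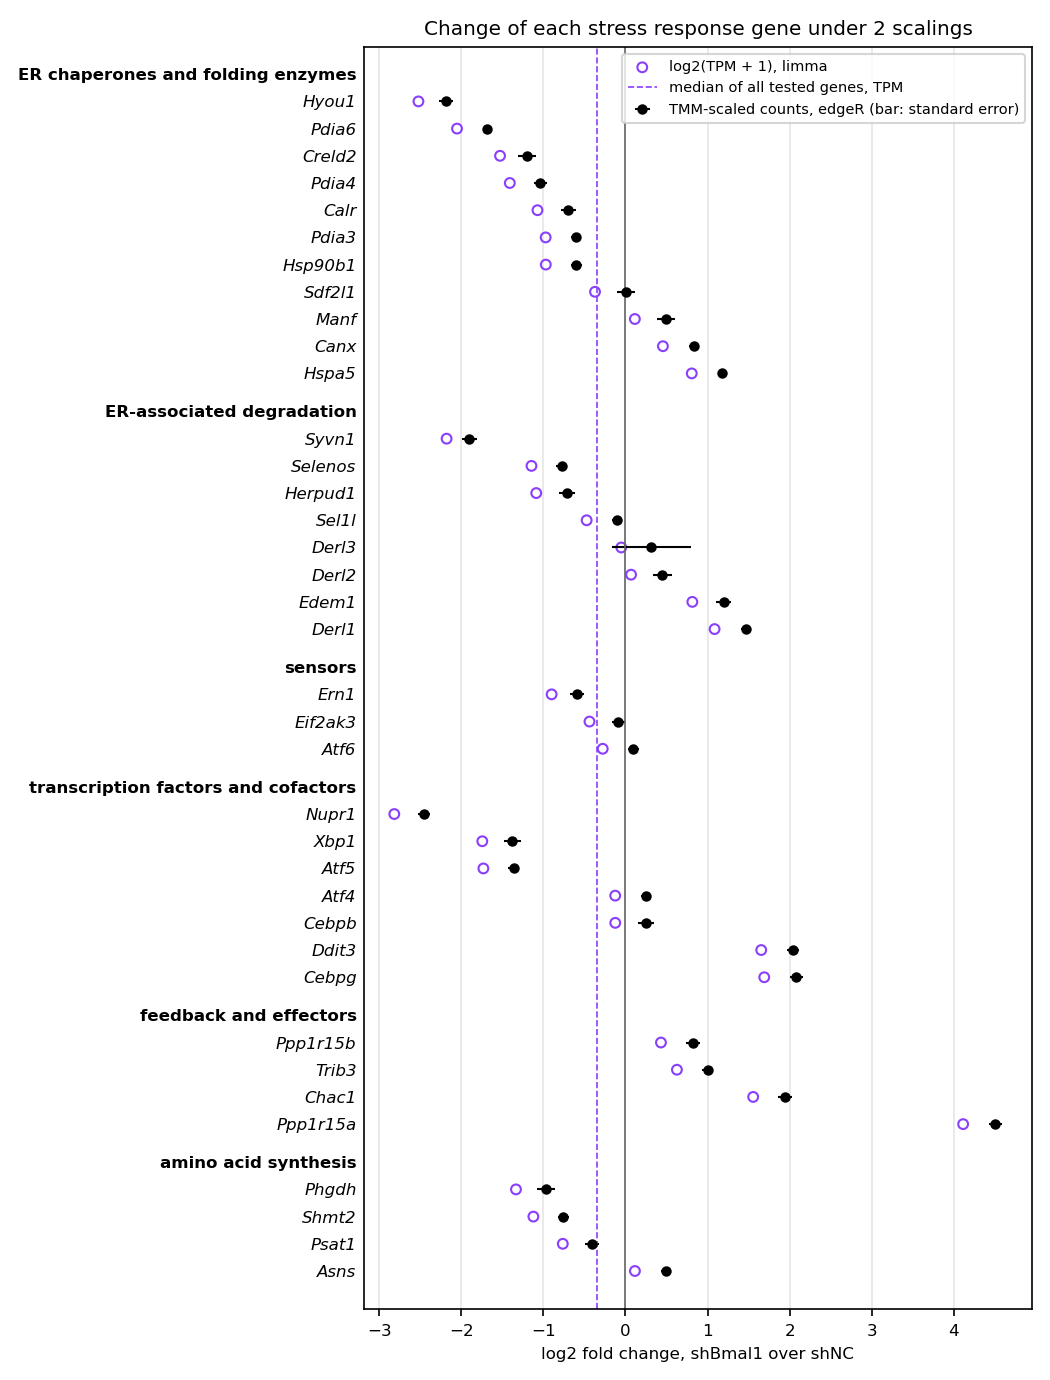
log2 fold change, shBmal1 over shNC, of each gene by role: black points from TMM-scaled counts with the standard error as a bar, open violet circles from log2(TPM + 1), and a dashed line at the median of all tested genes under TPM, −0.35. The violet circles lie to the left of the black points for every gene, and genes such as Ppp1r15a (4.50) and Nupr1 (−2.46) keep their side of 0.

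ER chaperones and folding enzymes split, with 3 of 11 higher (27.3%), 7 lower (63.6%) and 1 not passing (median −0.60). Beside these stand 36.0% higher, 35.3% lower and a median of −0.014 over all genes tested. Hspa5, which encodes BiP, the most used marker of ER stress (ENSRNOG00000018294, chromosome 3, 13838304 to 13842762, forward strand), was at 1590.0, 1508 and 1578 CPM in shNC and 3443, 3593 and 3550.1 CPM in shBmal1. It rose 2.26-fold (1.18 ± 0.05, adjusted p = 5.12e-07), and the groups were far apart. Among the 11 genes, the other HSP-type chaperones of the ER lumen, Hyou1 and Hsp90b1, went the other way. Hyou1, which encodes GRP170, the exchange factor of BiP (ENSRNOG00000010944, chromosome 8, 48699769 to 48711910, forward strand), was at 397, 377 and 381 CPM in shNC and 91.1, 88.1 and 75.3 CPM in shBmal1 (−2.18 ± 0.08, adjusted p = 2.86e-07). Hsp90b1, which encodes GRP94, fell from 845 ± 27.5 to 558 ± 44.2 CPM (−0.60 ± 0.07, adjusted p = 0.000128).

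The lectin chaperones, which fold glycoproteins, diverged. Canx, the membrane-bound calnexin, rose from 823 ± 21.2 to 1463 ± 66.8 CPM (0.83 ± 0.06, adjusted p = 5.57e-06), while Calr, its soluble relative calreticulin, fell from 1715 ± 54.8 to 1059.6 ± 123 CPM (−0.69 ± 0.09, adjusted p = 0.000184). The ratio of Canx to Calr in FPKM went from 0.180 ± 0.00503 to 0.520 ± 0.0416 within libraries. It did not overlap between groups, which follows from the opposite changes of the genes. The 3 protein disulfide isomerases all fell. Pdia6 was at 678, 663 and 678 CPM in shNC and 210.2, 210.3 and 207 CPM in shBmal1, falling by 1.69 (SE 0.05, adjusted p = 1.07e-07). Pdia4 was at 477, 464 and 479 CPM in shNC and 206, 254 and 232 CPM in shBmal1 (−1.04 ± 0.08, adjusted p = 1.16e-05). Pdia3, the partner of calnexin and calreticulin, fell by 0.60 on the log2 scale (SE 0.06, adjusted p = 5.28e-05). Pdia3 lies within the span of Ppip5k1 on the other strand, whose log2 fold change was 1.41. Collagens, clients of these folding enzymes, took a smaller share of counts in shBmal1, as given above, and their part in these falls was not tested.

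The smaller luminal factors differed from each other. Creld2, an ER-resident disulfide isomerase-like protein gene, was at 35.7, 35.0 and 40.4 CPM in shNC and 17.0, 16.3 and 15 CPM in shBmal1 (−1.20 ± 0.11, adjusted p = 2.72e-05). Manf, which encodes a secreted regulator of BiP, rose from 141 ± 10.4 to 199 ± 25.6 CPM (0.49 ± 0.10, adjusted p = 0.00318), but with TPM it came to 0.11 and missed the threshold (adjusted p = 0.441, limma). Sdf2l1, a BiP cochaperone gene, was at 33.5, 29.6 and 33.7 CPM in shNC and 28.4, 34.8 and 33.4 CPM in shBmal1, with overlapping groups and adjusted p = 0.992; with TPM it came to −0.37 (adjusted p = 0.0218, limma).

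The composition of the chaperone pool differed, and its sum in FPKM overlapped between groups. Summed over the 11 genes, FPKM came to 3123 ± 87.1 in shNC and 3268 ± 198 in shBmal1 (SD, n = 3), and without Hspa5 to 2563 ± 72.3 and 1898 ± 162. As a share of counts the same genes took 0.729 ± 0.0196% in shNC and 0.850 ± 0.0391% in shBmal1, with no overlap, so the comparison of sums depends on the scale. Shares within the pool do not depend on library scaling. Hspa5 went from 17.9 ± 0.166% to 42.0 ± 1.5% of the pool, and Canx from 4.87 ± 0.109% to 8.93 ± 0.142%. Calr went from 27.1 ± 0.217% to 17.2 ± 1.11%, Pdia6 from 11.2 ± 0.139% to 3.61 ± 0.222% and Hyou1 from 2.42 ± 0.0643% to 0.553 ± 0.0788%. Of the 11 shares, 10 did not overlap between groups, 3 higher and 7 lower in shBmal1, and that of Sdf2l1 overlapped. Taken singly, 77.3% of all genes tested did not overlap in CPM. Shares of a pool have a fixed total, so a larger share of 1 gene leaves less for the rest together. The 7 lower shares are therefore not separate results. The genes with lower shares were also called lower singly in CPM, and the shares of Canx and Manf rose beside that of Hspa5. An exact permutation test on 3 against 3 libraries cannot give a p below 0.1.

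**Figure D3:**
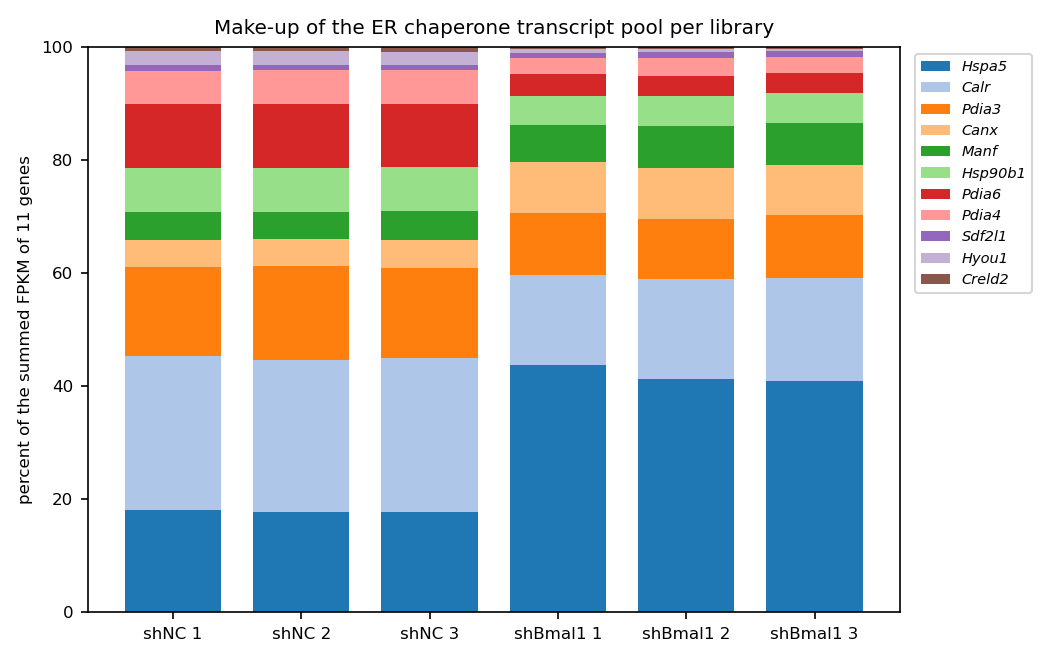
Stacked bars, 1 per library, give each of the 11 ER chaperone and folding genes as a percent of their summed FPKM. Hspa5 takes 17.8 to 18.1% of the pool in shNC and 40.9 to 43.7% in shBmal1, and Pdia6 shrinks from 11.2% to 3.61%.

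Genes of ER-associated degradation, the route that returns misfolded proteins to the cytosol for the proteasome, also went both ways. Of the 8, 3 were higher (37.5%), 3 lower (37.5%) and 2 did not pass (median 0.10). These shares are near the 36.0% and 35.3% of all genes tested. Syvn1, which encodes the ubiquitin ligase HRD1 at the core of the channel (ENSRNOG00000020950, chromosome 1, 221409271 to 221417886, forward strand), was at 124, 121 and 115 CPM in shNC and 36.1, 31.0 and 29.4 CPM in shBmal1 (−1.90 ± 0.09, adjusted p = 8.75e-07). It shares 551 bases with Mrpl49 on the other strand, whose log2 fold change was −0.53. Its partner Sel1l was at 317, 300.0 and 318 CPM in shNC and 287, 293 and 288 CPM in shBmal1, slightly lower in every shBmal1 library, and did not pass the test (−0.11 ± 0.05, adjusted p = 0.11); it passed with TPM (−0.47, adjusted p = 0.000435, limma). Sel1l encodes the adaptor that stabilizes HRD1.

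The derlins, membrane proteins of the same channel, did not all behave alike. Derl1 was at 116, 118 and 111 CPM in shNC and 299.7, 333 and 319.8 CPM in shBmal1 (1.47 ± 0.06, adjusted p = 5.49e-07). Derl2 rose from 27.0 ± 1.26 to 36.9 ± 5.18 CPM (0.45 ± 0.12, adjusted p = 0.00915), but came to 0.068 with TPM (adjusted p = 0.613, limma). Derl3, the scarcest member, shares 618 bases with Smarcb1 on the other strand, whose log2 fold change was −1.33. Reads of that stretch cannot be assigned without strand. Derl3 was at 0.853, 1.23 and 0.760 CPM in shNC and 1.08, 1.55 and 0.911 CPM in shBmal1, from 10 to 19 counts per shBmal1 library and 32 to 58 per shNC library, and no difference was detectable at this depth (0.32 ± 0.48, adjusted p = 0.578). Edem1, which recognizes mannose-trimmed glycoproteins for disposal (ENSRNOG00000055365, chromosome 4, 140886545 to 140915779, forward strand), was at 102, 95.1 and 107 CPM in shNC and 209.6, 228 and 259.7 CPM in shBmal1 (1.20 ± 0.09, adjusted p = 1.03e-05). Herpud1, an ER stress-induced organizer of the HRD1 complex, fell from 177 ± 1.06 to 108 ± 14.9 CPM (−0.71 ± 0.10, adjusted p = 0.000319), and Selenos, a selenoprotein that recruits the p97 ATPase, from 122 ± 2.69 to 71.4 ± 3.54 CPM (−0.78 ± 0.07, adjusted p = 1.85e-05).

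The 4 amino acid genes, all known ATF4 targets, went both ways (median −0.58). Like Ddit3, Chac1 and Trib3, 1 was higher (25%), whereas 3 were lower (75%). The shares of all genes tested were 36.0% and 35.3%. Asns, which encodes asparagine synthetase, rose from 136 ± 4.60 to 190.4 ± 7.22 CPM (0.49 ± 0.06, adjusted p = 0.000173) and came to 0.12 with TPM (adjusted p = 0.172, limma). The serine and folate genes fell: Phgdh, the entry enzyme of serine synthesis, from 107 ± 4.22 to 54.9 ± 8.25 CPM (−0.97 ± 0.11, adjusted p = 0.000112), the mitochondrial hydroxymethyltransferase gene Shmt2 from 158 ± 4.84 to 93.5 ± 5.98 CPM (−0.76 ± 0.07, adjusted p = 2.86e-05), and Psat1, the next step after Phgdh, by 0.40 on the log2 scale (SE 0.08, adjusted p = 0.00296).

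Ranks within each library do not change with scaling. The plot of FPKM percentiles places Ppp1r15a at 84.2 to 99.0, Cebpg at 81.5 to 94.1 and Ppp1r15b at 64.2 to 75.9 (mean of 3 libraries, shNC to shBmal1). Syvn1 went from 80.0 to 51.4, Hyou1 from 94.4 to 73.7 and Creld2 from 82.7 to 65.7. Hspa5 could hardly move in rank, being at 99.4 to 99.6.

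**Figure D4:**
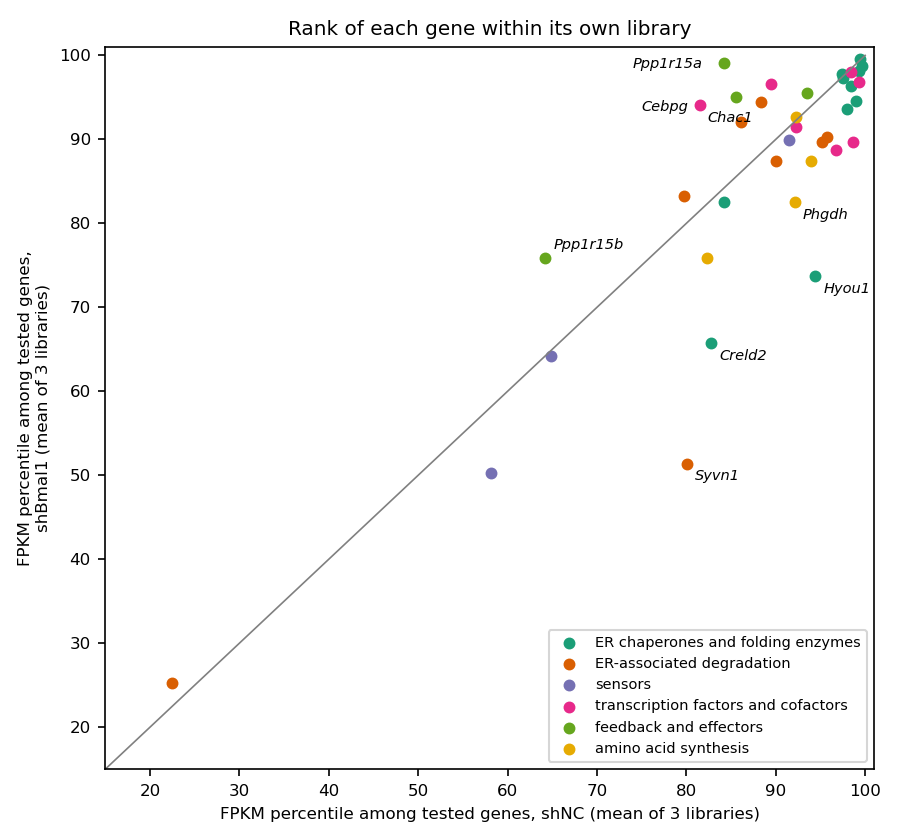
Each point is 1 gene, colored by role, at its FPKM percentile among tested genes in shNC (x axis) and shBmal1 (y axis), as means of 3 libraries, with the line of equal rank. Ppp1r15a, Cebpg, Chac1 and Ppp1r15b lie above the line and Syvn1, Hyou1, Creld2 and Phgdh below it, and most ER chaperones sit at the upper right.

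Other genes of the pathway also went both ways. The shares of each list below stand beside 36.0% called higher and 35.3% lower over all genes tested. Among further ER folding factors, 5 of 31 tested were higher (16.1%), 20 lower (64.5%) and 6 did not pass. Their median was −0.53, beside a median of −0.014 over all genes. Dnajb9, a BiP cochaperone that restrains IRE1, rose from 26.3 ± 1.24 to 230.0 ± 14.4 CPM (3.13) and the disulfide oxidase gene Ero1a from 44.9 ± 3.43 to 208 ± 20.2 CPM (2.21); the values in parentheses are log2 fold changes. Fkbp14, a collagen-directed prolyl isomerase gene, fell from 83.1 ± 5.55 to 22.6 ± 2.37 CPM (−1.88) and Uggt1, the glycoprotein folding sensor, from 225 ± 0.770 to 121 ± 2.42 CPM (−0.89). Among these folding factors, the TPM scale called 4 higher and 26 lower, a scale on which 28.3% of all genes tested were called higher and 46.6% lower.

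Among further degradation factors, 10 of 23 tested were higher (43.5%), 8 lower (34.8%) and 5 did not pass (median −0.0038). These shares are near those of all genes tested, 36.0% and 35.3%. With each library left out in turn this median lay between −0.054 and 0.020, and with TPM it was −0.37. Ubxn4 rose from 110.3 ± 1.70 to 270.0 ± 9.98 CPM (1.29) and the ubiquitin-conjugating enzyme gene Ube2g2 from 72.7 ± 1.19 to 117 ± 7.53 CPM (0.69), while Tmub1 fell from 20.9 ± 0.148 to 7.60 ± 0.292 CPM (−1.46) and Herpud2 from 84.1 ± 4.91 to 36.2 ± 6.67 CPM (−1.22). On the TPM scale 5 of the degradation factors were called higher and 12 lower, beside 28.3% and 46.6% of all genes tested. The translocon, signal peptidase and oligosaccharyltransferase genes bring proteins into the ER and glycosylate them. Of these, 6 of 20 tested were higher (30%), 10 lower (50%) and 4 did not pass (median −0.13). The TPM scale called 4 of them higher and 13 lower, beside the same 28.3% and 46.6% of all genes tested. Their median was −0.078 without shBmal1 replicate 1, −0.24 without shBmal1 replicate 2 and 0.025 with library totals alone. Sec61g rose from 39.8 ± 3.87 to 228 ± 9.46 CPM (2.52) and Stt3b from 185 ± 1.59 to 462 ± 46.4 CPM (1.32), and the translocon-associated genes Ssr3 and Ssr1 fell from 202 ± 3.54 to 75.8 ± 5.24 CPM (−1.42) and from 234 ± 13.4 to 102 ± 4.65 CPM (−1.21).

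Further ATF4 targets were divided as well: 13 of 30 tested were higher (43.3%), 14 lower (46.7%) and 3 did not pass (median 0.16). Over all genes tested the shares were 36.0% and 35.3%. The TPM scale called 11 of these targets higher and 15 lower, beside 28.3% and 46.6% of all genes tested on that scale. The median was 0.031 without shBmal1 replicate 1 and −0.21 with TPM. Atf3, an immediate stress factor gene, rose from 1.89 ± 0.183 to 81.8 ± 1.68 CPM (5.43) and Sesn2, which encodes an inhibitor of mTORC1, from 146 ± 5.01 to 679 ± 33.6 CPM (2.22). Vldlr fell from 276 ± 1.29 to 73.1 ± 1.39 CPM (−1.91) and Jdp2 from 83.3 ± 4.98 to 19.5 ± 1.21 CPM (−2.09). Another list held other eIF2 kinases, eIF2 and eIF2B subunits and the regulators Gcn1, Impact and Nck1. Of these, 10 of 14 tested were higher (71.4%), 3 lower (21.4%) and 1 did not pass (median 0.59). Under TPM 7 were higher and 3 lower, beside the same 28.3% and 46.6% of all genes tested. Nck1, whose adaptor product binds eIF2, rose from 14.1 ± 2.13 to 156 ± 13.3 CPM (3.46) and Eif2b1 from 31.3 ± 0.927 to 201 ± 21.4 CPM (2.68); Eif2ak4, the amino acid sensor GCN2, fell from 39.0 ± 2.53 to 21.1 ± 4.72 CPM (−0.88) and its activator Gcn1 from 274 ± 15 to 201 ± 5.69 CPM (−0.45).

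Of 9 other ER-anchored transcription factor, sensor and processing protease genes, 7 were tested. Of these 1 rose (14.3%), 3 fell (42.9%) and 3 did not pass (median −0.71), beside 36.0% and 35.3% of all genes tested. This median is the value of Creb3l4, which had counts of 0, 30 and 0 in shBmal1. The list median was −1.19 without shNC replicate 1, −0.19, −1.52 and −0.22 without shBmal1 replicates 1, 2 and 3, and −1.77 with TPM and a pseudocount of 0.1. Creb3 rose from 161 ± 6.61 to 416 ± 30.8 CPM (1.37). Creb3l2, a factor known for secretory capacity in cartilage, fell from 544 ± 28.2 to 91.6 ± 8.98 CPM (−2.57), and Mbtps1, the protease that makes the first cut in ATF6, from 332 ± 10.5 to 119 ± 4.4 CPM (−1.49). The third fall was that of Creb3l1, from 303 ± 24.5 to 49.6 ± 6.43 CPM (−2.61), named after its value was seen.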

How the data were processed

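Bulk RNA was sequenced from 3 shBmal1 and 3 shNC libraries with paired ends after poly(A) selection, per the labels' protocols, which also mention poly(A)- fractions and an adipose source that does not match these cells. The deposited table holds raw counts per gene and library, per the file headers, and FPKM computed by the authors, per the file headers. DESeq2, edgeR, StringTie 1.3.4d, HISAT2 2.0.4 and cutadapt 1.9 appear, with no roles, in the submitters' processing notes. Genome build, counting program and strand setting: not given in the sources used here. For each gene the ratio of FPKM to counts was constant across libraries, up to a factor per library (10394 genes, largest log2 SD 0.0064).

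Counts were filtered with filterByExpr (minimum count 10, minimum total 15), scaled by TMM and compared with edgeR 4.0.16 (glmQLFit, glmQLFTest; R 4.3.3) across 14342 genes, without a replicate block. The standard error is the log2 fold change divided by the root of F. A floor of 3 counts corresponds to 0.0637 to 0.0712 CPM per shNC library and 0.245 to 0.323 CPM per shBmal1 library, which covers counting error only. Chi-square values of 11.2 to 25.2 per degree of freedom show that replicates differ by more than sampling noise. The procedure was tested on simulated counts in which a small part of the genes changed, equally up and down. In the data 71.3% of all genes tested were called, so the simulation does not test TMM scaling under so wide a change.

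Alternatives were other scalings, DESeq2 1.42.0, limma 3.58.1 on log2 values of TPM or FPKM, other filters, a replicate block and leaving out each library. Members and lists were chosen with earlier results of these data known. Values per library are given for Hspa5, Xbp1, Ern1, Atf6, Eif2ak3, Atf4 and Ddit3, for members called with an absolute log2 fold change of at least 1, and for members that change sign with TPM; further lists name up to 2 genes per direction with the smallest p. Sel1l is also given by library, chosen after its values were seen.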

Additional observations from a re-analysis of the deposited data

How the results depend on the processing

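Over 16 alternatives, 13 to 16 members were called higher and 17 to 18 lower, except with TPM, where 10 were higher and 21 lower with a pseudocount of 1 or 0.1. Of the 37 genes, 27 kept direction and side of the threshold in all 16 alternatives, and the exceptions were Sdf2l1, Manf, Sel1l, Derl2, Derl3, Atf6, Eif2ak3, Atf4, Cebpb and Asns. The TPM scaling lowered every member and the median of all genes (−0.35 and −0.43 with pseudocounts of 1 and 0.1), and 37.8% and 38.2% of all calls were then higher, against 50.5%. Signs changed with TPM for Atf4 (−0.13 and −0.13), Atf6 (−0.28 and −0.28), Cebpb (−0.12 and −0.13), Derl3 (−0.051 and −0.069) and Sdf2l1 (−0.37 and −0.38). They changed with library totals alone for Eif2ak3 (0.075) and Sel1l (0.053), with log2 FPKM for Eif2ak3 (0.023) and Sel1l (0.0046), with a mean of at least 50 counts for Eif2ak3 (0.017), and without a filter for Sdf2l1 (−0.072). Leaving out each library in turn gave 14 to 15 higher and 17 lower, Arntl at −3.84 to −3.21, Sdf2l1 at −0.089 to 0.052 and Atf6 at −0.0048 to 0.10. With a replicate block 14 members were higher and 17 lower, Sdf2l1 came to −0.0013 and Cebpb lost its call (adjusted p = 0.0517, edgeR). Deviations of same-numbered libraries correlated at −0.07, −0.0026 and 0.02. These values show no pairing by number, but with 3 libraries per group they cannot exclude it. Apart from the constructions named, the cause of each change was not tested. Counts were fewest for Derl3, with 10 to 58 per library.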

Other observations

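Ratios between related genes within a library, in FPKM, do not depend on library scaling. Ddit3 relative to Atf4 went from 0.170 ± 0.00377 to 0.589 ± 0.0154 (SD, n = 3, shNC to shBmal1) and Chac1 relative to Trib3 from 0.465 ± 0.0186 to 0.891 ± 0.0218. Hspa5 relative to Hsp90b1 went from 2.30 ± 0.0192 to 7.92 ± 0.472 and Hspa5 relative to Pdia6 from 1.60 ± 0.0260 to 11.6 ± 0.293. None of these ratios overlapped between groups. The pairs hold genes whose changes already differed, so this separation followed from the choice of pairs and is not a further result. Taken singly, 77.3% of all genes tested did not overlap in CPM.

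Across all 14342 genes tested, the log2 fold change had a Spearman correlation of −0.14 with the gene length implied by counts and FPKM, and across the 37 members of 0.14; genes within libraries are not independent, and these are descriptions.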
